A study of Rattus norvegicus with 2 samples.

Results

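Chromosomes 10, 12 and 20 were the 3 rat autosomes with the most HMGB2 peaks per Mb in untreated heart muscle cells, and the peaks on them are described here along their length. The members were all peaks of both deposited lists on these chromosomes, 9928 of 86412 peaks in all. They made up 5431 of the 43721 basal peaks (12.4%) and 4497 of the 42691 phenylephrine peaks (10.5%). The chromosomes were chosen on these same lists, by their density of peaks and by their smaller share of the phenylephrine list. Their density and their surplus of basal calls are therefore a description and carry no test.

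The study mapped HMGB2 by chromatin immunoprecipitation and sequencing (ChIP-seq). Its cells were primary ventricular myocytes, the heart muscle cells of the ventricles, from newborn Sprague Dawley rats aged 1 day. One library came from cells without treatment (basal), and 1 from cells given phenylephrine at 10 µM for 48 h, while no such time is given for the basal cells. Both cultures were plated for 24 h in medium with serum and then moved to medium with an insulin, transferrin and selenite supplement. All chromatin was fixed in formaldehyde, sheared and precipitated with an antibody to HMGB2. No genetic change is named in the labels, the number of pups per culture is not given there, and the files hold no expression values against which the cell type could be checked. Each condition had 1 library, so the spread between cultures is unknown. What follows compares 2 libraries and gives no p-value.

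HMGB2 is a chromatin protein of the high mobility group box family. Proteins of this family bind the minor groove of DNA with little preference for sequence and bend it, and they exchange rapidly on chromatin. Phenylephrine stimulates alpha-adrenergic receptors and makes cultured myocytes enlarge, a common model of hypertrophy. Rat chromosome 10 corresponds over most of its length to mouse chromosome 11 and human chromosome 17, which are rich in genes, and rat chromosome 20 carries the major histocompatibility complex. Where that complex or any gene lies in rn4, the build of the files, was not looked up here, because no annotation of that build was used.

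A peak is a stretch of the genome where the peak caller found more reads than around it, and its score is the significance score that the authors deposited with it. Chromosome 10 held 2925 basal and 2475 phenylephrine peaks, chromosome 12 held 1310 and 1035, and chromosome 20 held 1196 and 987. Per Mb of span this was 26.4 and 22.4 on chromosome 10, 28.0 and 22.1 on chromosome 12, and 21.7 and 17.9 on chromosome 20. The other 17 autosomes together held 37051 basal and 37054 phenylephrine peaks, 15.8 per Mb in either list. The next autosome by basal density was chromosome 19, with 20.4 basal and 19.3 phenylephrine peaks per Mb. In the phenylephrine list chromosome 20 took only rank 6, below chromosomes 19, 8 and 17, so it stood out in the basal list more than in the other. Basal peaks covered 3.50% of the span of the 3 chromosomes and 2.05% of that of the other autosomes. For phenylephrine peaks the covered shares were 1.41% and 0.9995%.

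Of all calls of both lists, the basal library supplied 54.7% on the 3 chromosomes together (Wilson 95% interval 53.7 to 55.7%) and 50.0% on the other autosomes (49.6 to 50.4%). The share was 54.2% on chromosome 10 (52.8 to 55.5%), 55.9% on chromosome 12 (53.9 to 57.9%) and 54.8% on chromosome 20 (52.7 to 56.9%). Single values for the other autosomes ran from 47.9% on chromosome 18 to 51.6% on chromosome 1. The 3 chromosomes thus held the 3 highest shares of the 20 autosomes, which is what they had been chosen for. In numbers, the surplus of basal calls was 450 peaks on chromosome 10, 275 on chromosome 12 and 209 on chromosome 20, 934 in all. On the other 17 autosomes together basal and phenylephrine calls differed by 3 peaks. With only peaks scoring at least 100, which keeps 14234 basal and 3173 phenylephrine peaks over the whole lists, the basal share was 83.7% on the 3 chromosomes and 81.7% on the other autosomes, a gap of 1.95 in place of 4.71 percentage points. Scores of the 2 lists are not on a known common scale. With 21345 top-scoring peaks from each list, the basal shares were 55.4% and 49.05%, a gap of 6.35 percentage points. The change of the gap thus depended on how strong peaks were picked. Every interval printed in this account covers only the error of counting peaks, and peaks that lie close together may not be independent.

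**Figure D1:**
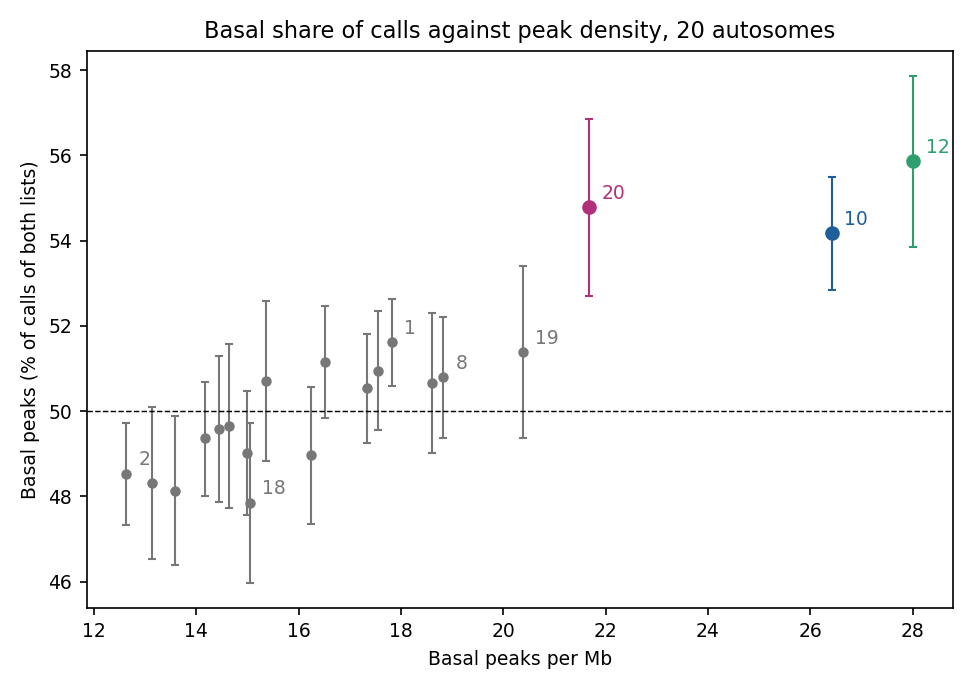
Basal peaks as a percentage of the calls of both lists (vertical axis, with Wilson 95% intervals) against basal peaks per Mb (horizontal axis) for the 20 autosomes, with 1 library per condition. Chromosomes 10, 12 and 20 lie at 54.2%, 55.9% and 54.8%, above the other 17 autosomes, whose highest value is 51.6% on chromosome 1.

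Along chromosome 10 the density of HMGB2 peaks climbed from one end of the assembly to the other. When its span of 110.7 Mb was cut into 4 equal parts, the basal list held 19.1, 23.6, 26.5 and 36.5 peaks per Mb from the first part to the last, and the phenylephrine list 16.0, 22.2, 22.5 and 28.7. The surplus of basal calls was 84, 40, 112 and 214 peaks in these parts. The basal share of calls was lowest in the second part, at 51.6% (48.8 to 54.3%), and highest in the last, at 55.9% (53.6 to 58.2%), and these intervals overlap. Within the first part, bins of 1 Mb from 13000001 to 17000000 held 47, 37, 36 and 49 basal peaks. Those from 22000001 to 27000000 held 1, 1, 2, 7 and 2. Sparse bins also lay farther along, with 4 and 3 basal peaks from 80000001 to 82000000.

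In bins of 1 Mb, assigned by the midpoint of each peak, 66 of the 111 bins of chromosome 10 (59.5%) held more basal than phenylephrine peaks, beside 40.7% of all autosomal bins. Since the chromosomes were chosen on this contrast, nothing is read from the gap. The bin with the most basal peaks, at 90000001 to 91000000, held 62 (exact Poisson 95% interval 47.5 to 79.5) and also had the largest surplus, against 38 phenylephrine peaks (26.9 to 52.2). The next largest surpluses were at 86000001 to 87000000, with 56 basal peaks beside 33, and at 92000001 to 93000000, with 53 beside 33. All 3 bins lay in the last part of the chromosome, and the 2 intervals of each overlap. The bin with the most phenylephrine peaks was their neighbour at 89000001 to 90000000, with 59 basal and 46 phenylephrine peaks, so both lists were densest in the same few Mb.

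The longest run of neighbouring bins with more basal calls on chromosome 10 was 9 bins long and reached the end of the chromosome, from 102000001 to 111000000, with 348 basal and 242 phenylephrine peaks. The bin just before that run went the other way. At 101000001 to 102000000 only 3 basal peaks (0.619 to 8.77) were called beside 18 from the phenylephrine library (10.7 to 28.5). A similar bin at 42000001 to 43000000 had 1 basal peak (0.0253 to 5.57) and 15 from the phenylephrine library (8.40 to 24.7). In both bins the intervals lay apart, and no other bin of the 3 chromosomes had its phenylephrine interval wholly above the basal one. Between 21000001 and 31000000 no bin held more basal than phenylephrine peaks, and these 10 bins held 72 and 111 in all.

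**Figure D2:**
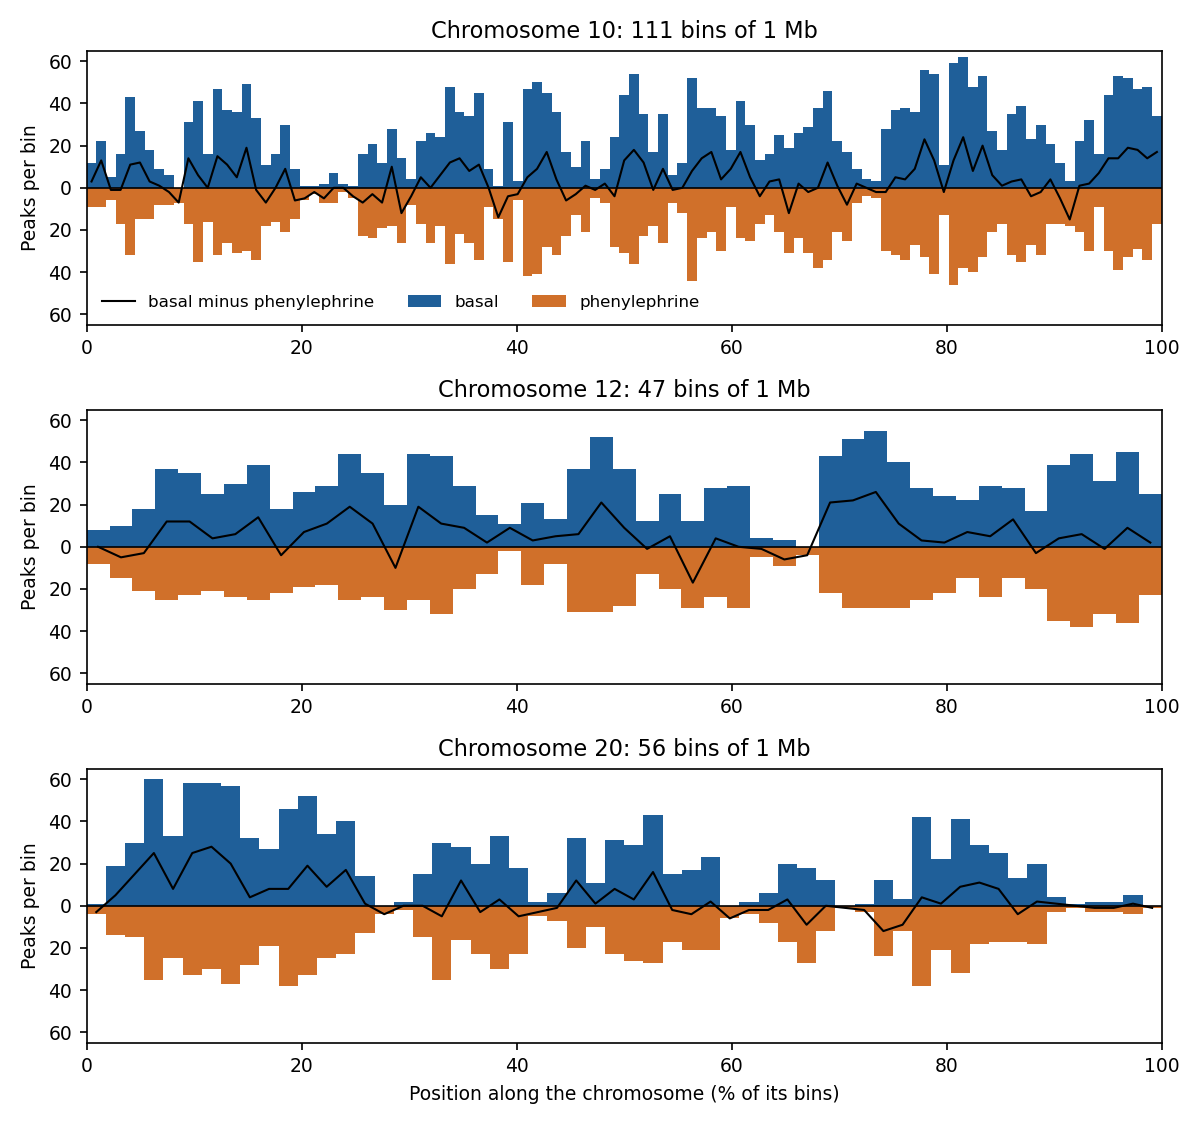
HMGB2 peaks per 1 Mb bin along chromosomes 10, 12 and 20 (horizontal axis: position in percent of the bins of each chromosome). Basal peaks are drawn upwards, phenylephrine peaks downwards, and the line is basal minus phenylephrine. The line stays above 0 over 14 bins near the start of chromosome 20, over 10 bins of chromosome 12 and over the last 9 bins of chromosome 10.

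Chromosome 12, the densest of the autosomes in the basal list, had a surplus in each of 4 equal parts, though not in every stretch. In these parts of its 46.8 Mb the basal share of calls was 56.3%, 57.4%, 55.8% and 54.2%, and the surplus was 70, 88, 59 and 58 peaks. None of the 4 bins from 28000001 to 32000000 held more basal than phenylephrine peaks, and together they held 36 and 47. More basal than phenylephrine peaks were found in 34 of its 47 bins, the highest fraction of bins on any autosome. The bin at 34000001 to 35000000 held the most basal peaks and the largest surplus, 55 basal (41.4 to 71.6) against 29 phenylephrine peaks (19.4 to 41.7). Its neighbour at 33000001 to 34000000 followed with 51 beside 29, and then came the bin at 22000001 to 23000000 with 52 beside 31. The phenylephrine list was densest elsewhere, at 43000001 to 44000000, with 38 peaks beside 44 basal ones.

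Against this, 2 bins of chromosome 12 stood out by more phenylephrine peaks. At 26000001 to 27000000 there were 12 basal (6.20 to 21.0) against 29 phenylephrine peaks (19.4 to 41.7), and at 13000001 to 14000000 there were 20 against 30. Both pairs of intervals overlap. The second of these bins directly precedes the longest run with more basal calls, 10 bins from 14000001 to 24000000 with 302 basal and 208 phenylephrine peaks. Outside that run the basal share of calls on chromosome 12 was still 54.9% (52.7 to 57.2%). On chromosome 10 the corresponding value outside its longest run was 53.6% (52.2 to 55.0%). On both chromosomes the surplus was therefore not held by the longest run alone.

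Chromosome 20 differed in this respect, since its surplus lay almost wholly near the start of the assembly. A run of 14 bins from 1000001 to 15000000 held 560 basal and 368 phenylephrine peaks, a basal share of 60.3% (57.2 to 63.4%), and 192 of the 209 surplus peaks of the chromosome. Outside it the share was 50.7% (47.9 to 53.4%), with 636 basal and 619 phenylephrine peaks. In 4 equal parts of its 55.2 Mb the basal density was 38.9, 17.1, 15.2 and 15.5 peaks per Mb and the phenylephrine density 25.8, 15.7, 15.5 and 14.6. The first part thus exceeded the most peak-rich part of chromosome 10 in basal density, while the rest of chromosome 20 was near the 15.8 per Mb of the other autosomes in both lists. Since the run was picked for its surplus, its share is a description.

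The largest surplus of the 3 chromosomes was in that run. At 6000001 to 7000000 on chromosome 20 the basal library gave 58 peaks (44.0 to 75.0) and the phenylephrine library 30 (20.2 to 42.8), and this was the only one of the 214 bins in which the basal interval lay wholly above the other. The bin at 3000001 to 4000000 held the most basal peaks of the chromosome, 60, beside 35 phenylephrine peaks, and the bin at 5000001 to 6000000 held 58 and 33. The most phenylephrine peaks were in the same run, 38 at 10000001 to 11000000, where 46 basal peaks were called. Bins with more phenylephrine peaks lay in the sparser remainder, at 41000001 to 42000000 with 12 basal and 24 phenylephrine peaks and at 37000001 to 38000000 with 18 and 27. They belong to 6 neighbouring bins from 37000001 to 43000000 with no surplus of basal calls, which held 46 and 79 peaks in all.

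Over the 3 chromosomes, basal calls exceeded phenylephrine calls in 131 of 214 bins (61.2%, 54.5 to 67.5%), and in 38.9% of the bins of the other autosomes. At scores of 100 or more these shares were 85.9% and 74.2%, so the direction on the other autosomes turned. Phenylephrine calls were more numerous in 68 bins and the 2 counts were equal in 15. The basal-rich bins added 1238 surplus peaks and the phenylephrine-rich bins took back 304. A basal count at least 1.5 times the phenylephrine count was found in 43 bins, 20.1%, against 13.0% of all autosomal bins. The opposite was found in 33 bins, 15.4%, against 30.6%. The former were dense bins, with a median of 64 calls of both lists, and the latter were sparse, with a median of 9. By the stricter measure of Poisson intervals that lie apart, 1 bin was basal-rich and 2 were phenylephrine-rich.

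The numbers of peaks in the 2 libraries followed each other closely along each chromosome. Over bins, Pearson's r was 0.89 on chromosome 10 (111 bins), 0.79 on chromosome 12 (47 bins) and 0.90 on chromosome 20 (56 bins), and Spearman's rho was 0.89, 0.78 and 0.91. On the other autosomes the values were 0.86 and 0.89 over 2354 bins. These bins share the same pair of libraries and are not replicates.

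The surplus of basal calls was larger in bins with more calls of both lists. The same calls set both the class of a bin and its basal share. A list whose counts vary more over bins therefore takes a larger share of dense bins, so this order is a description. In bins with fewer than 20 calls of both lists, the basal share on the 3 chromosomes was 39.2% (34.4 to 44.2%, 42 bins). It was 49.4% (46.7 to 52.2%, 42 bins) at 20 to 39 calls, 54.0% (52.1 to 55.8%, 58 bins) at 40 to 59 calls, and 57.4% (56.1 to 58.7%, 72 bins) at 60 calls or more. In numbers these classes held surpluses of -82, -15, 223 and 808 peaks, so most of the total came from the densest bins. Of the bins in these classes, 6 of 42, 18 of 42, 42 of 58 and 65 of 72 held more basal calls.

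**Figure D3:**
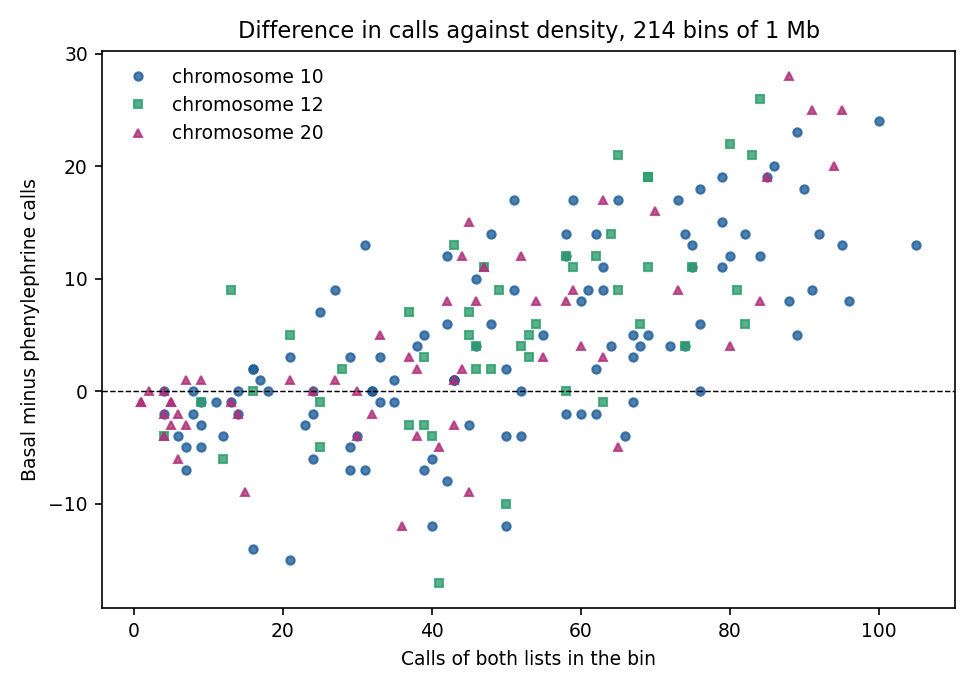
Basal minus phenylephrine calls (vertical axis) against the calls of both lists (horizontal axis) in each of the 214 bins of 1 Mb on chromosomes 10, 12 and 20. Bins with few calls scatter around and below 0, and 65 of the 72 bins with 60 or more calls lie above it.

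Bins of equal density on the other autosomes showed nearly the same gradient. Their basal share was 37.5% (36.4 to 38.6%), 46.3% (45.6 to 47.0%), 51.5% (50.9 to 52.2%) and 55.9% (55.2 to 56.6%) in the 4 classes. Each of these values was lower than that of the 3 chromosomes, by 1.69, 3.09, 2.42 and 1.53 percentage points, and in each class the 2 intervals overlap. What differed more was how many bins were dense. Bins with 60 or more calls made up 33.6% of the bins of the 3 chromosomes and 12.8% of those elsewhere, and bins with fewer than 20 calls 19.6% and 36.5%. When the other autosomes were weighted to the calls per class of the 3 chromosomes, their basal share became 52.7% in place of 50.0%. The gap to the 3 chromosomes was then 1.99 percentage points in place of 4.71. Chromosome by chromosome the weighted gap was 1.21 points for chromosome 10, 3.07 for chromosome 12 and 2.76 for chromosome 20. The density of a bin counts the same calls as the surplus, so this comparison is not independent of how the chromosomes were chosen. For the same reason the gradient over the classes is partly built in, and nothing is read from the weighted gaps.

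**Figure D4:**
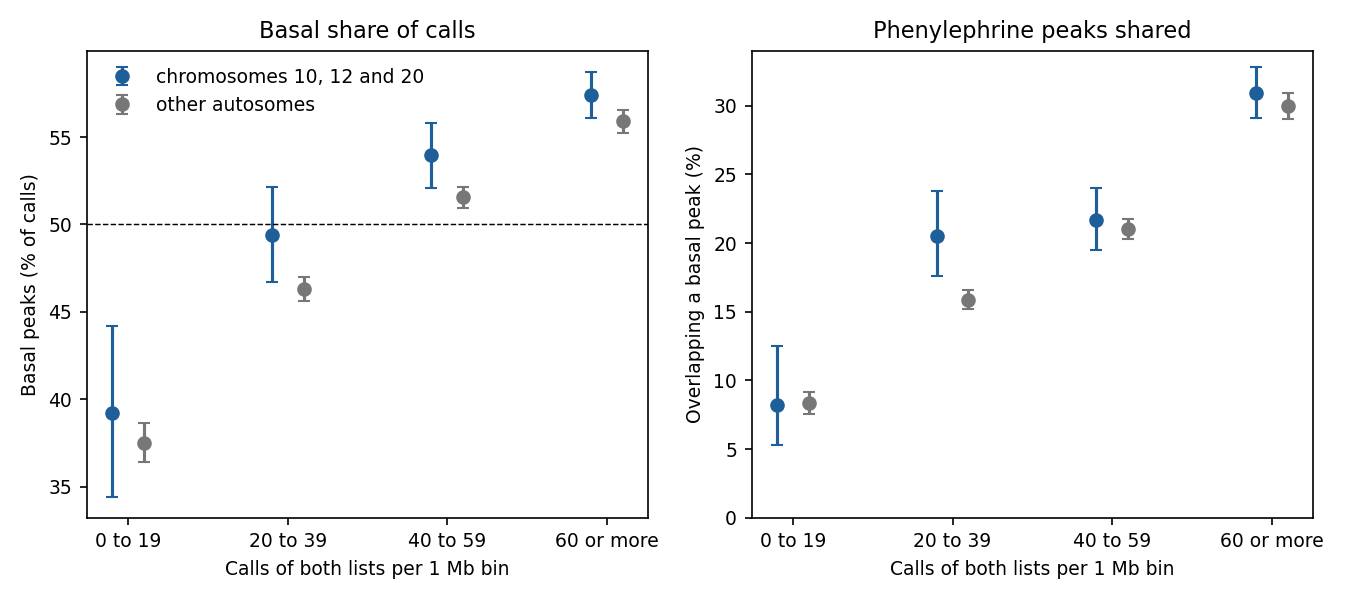
Basal share of calls (left) and share of phenylephrine peaks that overlap a basal peak (right), in percent with Wilson 95% intervals, for 1 Mb bins classed by the calls of both lists. On chromosomes 10, 12 and 20 the basal share runs from 39.2% to 57.4% and the shared phenylephrine peaks from 8.23% to 30.9%, and the other autosomes show the same order of classes.

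Sharing means an overlap of 1 bp or more between peaks of both lists. It is not independent of the choice of the chromosomes, since nearly the same number of overlaps is divided by the peaks of each list, and the lists differ in length here by the basal surplus, a ratio of 1.21. Of the phenylephrine peaks on the 3 chromosomes, 1151 were shared, 25.6% (24.3 to 26.9%), against 20.8% of all autosomal phenylephrine peaks and 20.2% (19.8 to 20.6%) of those on the other autosomes. The shares were 25.9% on chromosome 10, 25.5% on chromosome 12 and 25.0% on chromosome 20, and these took ranks 1, 3 and 4 of the 20 autosomes. Chromosome 16 took rank 2 with 25.7% at a basal density of only 15.4 per Mb, so a high share was also seen on an autosome that was not dense. Of the basal peaks, 1119 were shared, 20.6% (19.5 to 21.7%), close to the 19.7% of all autosomal basal peaks and the 19.6% (19.2 to 20.0%) of the other autosomes. The higher share in the phenylephrine list thus goes with the smaller number of phenylephrine peaks, and nothing is read from it. It also depended on the settings. When 50% of both peaks had to overlap it was 9.61%, against 8.22% on the other autosomes, and with scores of 100 or more in both lists 47.1% against 46.2%, a gap of 0.904 in place of 5.37 percentage points.

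Sharing of phenylephrine peaks also followed the density of the bin. On the 3 chromosomes it was 8.23%, 20.5%, 21.7% and 30.9% from the sparsest to the densest class, and on the other autosomes 8.32%, 15.9%, 21.0% and 30.0%. Basal peaks were shared in 13.4%, 19.9%, 17.96% and 22.4% of cases on the 3 chromosomes and in 13.2%, 17.8%, 19.1% and 23.0% elsewhere, a smaller rise over the classes. For phenylephrine peaks the intervals of the 2 sets lay apart in the class of 20 to 39 calls, 17.6 to 23.8% against 15.2 to 16.6%. They overlapped in the other classes, and for basal peaks they overlapped in every class. Weighting the other autosomes to the same densities gave 24.2% of phenylephrine peaks shared, which leaves 1.36 of the 5.37 percentage points. Among bins with at least 20 phenylephrine peaks the share ran from 3.85% to 57.1% with a median of 26.6% (122 bins), and it correlated with the calls of the bin (r = 0.63, rho = 0.60). For basal peaks the range was 3.33% to 40.9% with a median of 20.6% (129 bins), and the correlation was weaker (r = 0.28, rho = 0.32). Both are descriptions over bins of the same libraries, and the number of peaks that could be overlapped differs between bins.

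In the 131 bins with more basal calls, 30.0% of phenylephrine peaks (28.5 to 31.6%) were shared, and in the 68 bins with more phenylephrine calls 12.1% (10.2 to 14.1%). On the other autosomes these values were 27.1% and 13.7%. This split fixes the gap in large part, because it sorts bins by the number of phenylephrine peaks that the share is divided by. Of the basal peaks, 21.1% and 16.7% were shared in the same bins, and 19.6% in both kinds of bin on the other autosomes. The run near the start of chromosome 20, picked for its basal surplus, had 34.2% of its phenylephrine peaks shared, against 19.5% on the rest of the chromosome, and 21.8% of its basal peaks against 18.2%. Its bin at 3000001 to 4000000 had 20 of 35 phenylephrine peaks shared (57.1%, 40.9 to 72.0%), the highest of the 122 bins, and the bin at 5000001 to 6000000 had 16 of 33 (48.5%). In the longest basal-rich runs of chromosomes 10 and 12, 32.2% and 32.7% of phenylephrine peaks were shared. Of their basal peaks it was 21.8% against 21.3% outside the run on chromosome 10, and 21.9% against 18.8% on chromosome 12, so the runs stood apart less by this share.

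By the share of basal peaks, the bins at the 2 extremes of each chromosome held 20 to 30 basal peaks. The highest values were 9 of 22 at 34000001 to 35000000 on chromosome 10 (40.9%, 23.3 to 61.3%), 8 of 21 at 19000001 to 20000000 on chromosome 12 (38.1%) and 8 of 20 at 36000001 to 37000000 on chromosome 20 (40%). The lowest were 1 of 30 at 20000001 to 21000000 on chromosome 10 (3.33%, 0.591 to 16.7%), 1 of 25 at 25000001 to 26000000 on chromosome 12 (4%) and 1 of 28 at 19000001 to 20000000 on chromosome 20 (3.57%). Nearly as low was a dense bin in the longest basal-rich run of chromosome 10, at 107000001 to 108000000. There 2 of 52 basal peaks were shared (3.85%, 1.06 to 13.0%). In the 2 phenylephrine-rich bins of chromosome 10, at 42000001 and at 101000001, none of the 15 and 18 phenylephrine peaks was shared (upper limits of the Wilson intervals 20.4% and 17.6%). On each chromosome a bin with 20 to 30 basal peaks thus held hardly any site called in both libraries. Another in that range shared 38.1% or more of its basal peaks. These bins were picked as extremes of 129, so the contrast is a description and no link to density is read from it.

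Unshared peaks often had a peak of the other list nearby. Within 10 kb of an unshared phenylephrine peak there was a basal peak in 50.7% of cases on the 3 chromosomes (49.0 to 52.4%) and in 37.8% on the other autosomes (37.3 to 38.4%). For unshared basal peaks the values were 47.5% (46.1 to 49.0%) and 41.2% (40.7 to 41.8%). The median distance to the other list was 9.75 kb from unshared phenylephrine peaks, against 15.4 kb elsewhere, and 10.7 kb from unshared basal peaks, against 13.1 kb. Peaks of 1 list also lay closer together here. In the basal list 55.6% of peaks had another basal peak within 10 kb, against 44.9% on the other autosomes, and in the phenylephrine list 39.6% and 35.0% had such a neighbour. These distances shorten wherever peaks are dense, and no comparison at matched density was made for them.

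The peaks themselves were slightly wider on the 3 chromosomes, and in the basal list more clearly so. The median basal width was 1173 bp (exact binomial 95% interval 1155 to 1191) against 1106 bp (1100 to 1111) on the other autosomes, and the median phenylephrine width was 598 bp (593 to 602) against 583 bp (581 to 585). Chromosome 10 had the widest median of all autosomes in both lists, 1209 and 601 bp. Chromosome 12, at 1152 and 599 bp, took rank 3 in the basal list, behind chromosome 1 with 1157 bp, and rank 2 in the phenylephrine list. Chromosome 20, at 1112 and 587 bp, took ranks 10 and 9 of 20. Without chromosome 10 the median basal width of the other two was 1132.5 bp, nearer to the 1106 bp of the other autosomes.

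Width grew with bin density as well. From the sparsest to the densest class the median basal width on the 3 chromosomes was 946, 1049, 1118.5 and 1258 bp, beside 941, 1047, 1098 and 1219 bp elsewhere. For phenylephrine peaks it was 516, 567, 589 and 620 bp beside 537.5, 573, 588 and 611 bp. The rise over the classes was thus larger than any difference between the 2 sets of chromosomes within a class. In the basal-rich bins of the 3 chromosomes the medians were 1211 and 609 bp, and in the phenylephrine-rich bins 1030.5 and 571 bp.

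**Figure D5:**
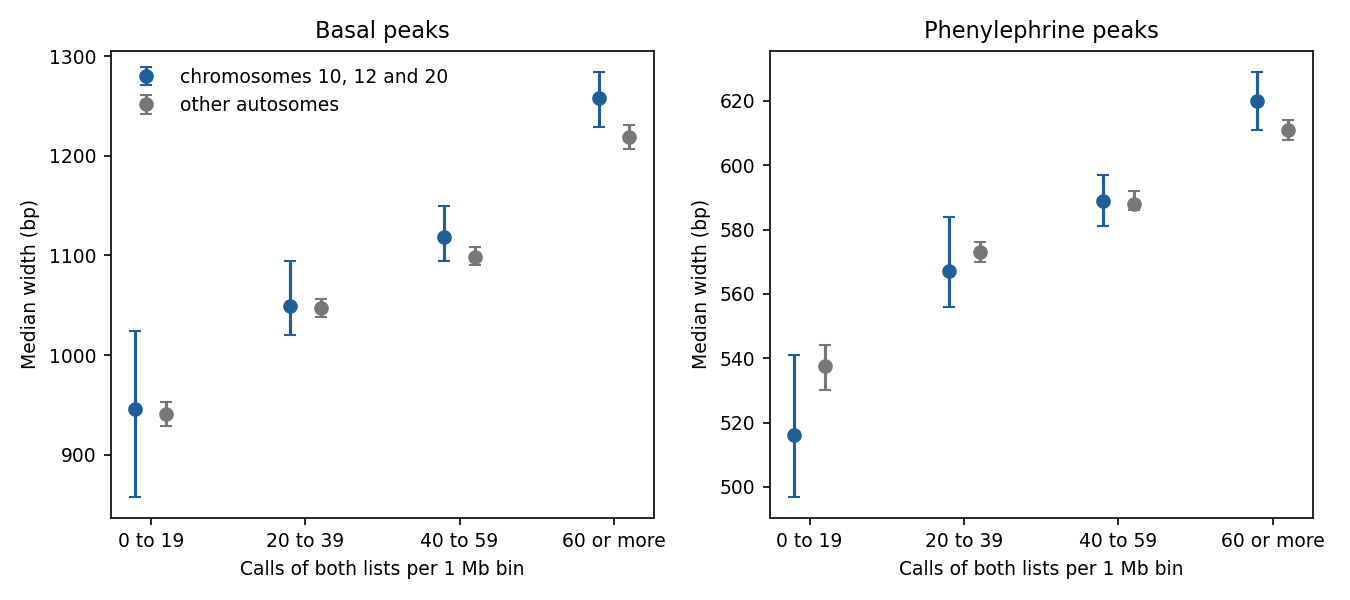
Median width of basal (left) and phenylephrine (right) peaks in bp, with exact binomial 95% intervals, by the calls of both lists per 1 Mb bin. The vertical axes do not start at 0 and differ between the panels. On chromosomes 10, 12 and 20 the basal median runs from 946 to 1258 bp and the phenylephrine median from 516 to 620 bp.

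Where a basal and a phenylephrine peak overlapped, the basal one was nearly always the wider. The 3 chromosomes held 1155 such pairs, in 95.2% of which the basal peak was wider, by a median factor of 2.08. In 65.8% the phenylephrine peak lay wholly inside it. The median factor was 2.17 on chromosome 10, 1.96 on chromosome 12, 2.07 on chromosome 20 and 1.99 on the other autosomes. The difference in width between the libraries was thus of like size on the dense chromosomes and elsewhere.

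Scores can be compared only within a list. In the basal list 34.7% of the peaks on the 3 chromosomes scored at least 100 (33.4 to 36.0%), against 31.9% on the other autosomes (31.5 to 32.4%). Among phenylephrine peaks 8.16% (7.40 to 9.0%) and 7.13% (6.88 to 7.40%) did, with intervals that just overlap. At a score of at least 200 the basal values turned to 9.46% and 9.76%, so the order did not hold at the higher score. From the sparsest to the densest bins, 25.5%, 33.7%, 33.3% and 36.0% of basal peaks on the 3 chromosomes reached 100. In the bin at 3000001 to 4000000 on chromosome 20 this share was 53.3%. Of the phenylephrine peaks scoring at least 100, 62.1% were shared on the 3 chromosomes (57.1 to 66.9%) and 55.5% elsewhere (53.6 to 57.4%), and of those scoring less, 22.4% and 17.5%. Sharing of basal peaks scoring at least 100 was 36.6% and 37.9%.

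The highest-scoring sites of the 3 chromosomes were shared. On chromosome 10 the top site of both lists was 1 place, 29081777 to 29082833 among basal and 29081791 to 29082836 among phenylephrine peaks, with a score of 3100 in each list and nearly equal widths of 1057 and 1046 bp. In the basal list this score was tied with that of the leading peak of chromosome 12, both at rank 4. The equal scores are therefore not read as equal strength in the 2 libraries. On chromosome 12 the basal list was led by a peak at 4414338 to 4415492, score 3100, whose partner scored 600.9, and the phenylephrine list by a peak of 383 bp close to the start of the assembly, at 13381 to 13763, score 867, with a basal partner at 13370 to 13765, score 2033. On chromosome 20 the leading basal peak lay at 36895089 to 36897673, score 1603, and the leading phenylephrine peak at 25105103 to 25106627, score 517. These sites lay outside the dense run at the start of chromosome 20.

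Within each list, the strongest sites of 1 library alone scored lower. Among basal peaks without a partner the highest scores were 552 at 48627465 to 48630410 on chromosome 10, 1170 at 4389686 to 4390475 on chromosome 12 and 608 at 38441598 to 38442622 on chromosome 20. Their nearest phenylephrine peaks lay 15.7, 21.1 and 40.6 kb away. Among phenylephrine peaks without a partner the highest scores were 255 at 74850919 to 74853130 on chromosome 10, 155 at 4477458 to 4477837 on chromosome 12 and 146 at 43464922 to 43465226 on chromosome 20. The first of these lay only 0.138 kb from a basal peak, the second 1.80 kb and the third 35.6 kb.

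The widest basal peaks were not the strongest ones. On chromosome 10 a peak of 6805 bp at 87543059 to 87549863 scored only 69.6 and was unshared. On chromosome 12 the widest peak of all autosomal basal peaks, 8161 bp at 12045651 to 12053811 with a score of 292, contained a phenylephrine peak of 5536 bp at 12046912 to 12052447 that scored 826. On chromosome 20 a basal peak of 7567 bp at 6566661 to 6574227, score 105, contained a phenylephrine peak of 1364 bp and lay in the bin with the largest basal surplus.

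Even these chromosomes had long stretches without HMGB2 peaks. The longest with no peak of either list spanned 1238 kb on chromosome 10 (60426677 to 61664812), 804 kb on chromosome 12 (18748113 to 19552297, inside its basal-rich run) and 1386 kb on chromosome 20 (39324673 to 40710630). Stretches of at least 1 Mb between neighbouring basal peaks numbered 12 and took up 8.30% of the span, against 14.4% on the other autosomes. In the phenylephrine list there were 3, taking up 1.88%, against 4.98%. Chromosome 20 held 5 of the 12 basal stretches, and they made up 14.9% of its span, about as much as on the other autosomes. The longest basal stretch of each chromosome contained phenylephrine peaks, 11 in 1640 kb on chromosome 10 (8584301 to 10224724), 6 in 1262 kb on chromosome 12 (30940277 to 32202712) and 9 in 1966 kb on chromosome 20 (32835232 to 34801262).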

How the data were processed

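Each library had 1 deposited peak list. Per the submitters' processing notes the authors used Bowtie 0.12.7, MACS 1.4.1 and the build rn4. Per the file headers each list has 4 columns, the last a score. The deposited score is the authors' significance score per peak. Its scale, the read depth, any control library and the calling threshold are not given in the sources used. No deposited peak scored below 50.

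Peaks were read in Python 3.11.15 with scipy 1.17.1, numpy 2.4.6 and pandas 2.3.3, and drawn with matplotlib 3.10.9. Printed starts have 1 added. The lowest start in both files is 1, so printed starts may be 1 bp too high. Spans run from the first base to the last peak end of either list. Overlap counts equalled those of bedtools 2.31.1, and the code was tested on simulated data.

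The chromosomes, classes and measures were chosen with earlier results of these data known. The weighting by class, the 4 parts of each chromosome, the overlapping pairs and the neighbour distances were not in the planned design. By the naming rule the text gives, per chromosome, the 3 bins with the largest basal and the 2 with the largest phenylephrine surplus, the bins with the most calls of each list, those with the highest and lowest share of shared basal peaks among bins with at least 20, the longest run, the longest empty stretch, the top shared and unshared peaks, and the widest basal peak.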

Additional observations from a re-analysis of the deposited data

How the results depend on the processing

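No paired analysis was possible because only 1 library was made per condition, and for the same reason none was left out. The read depth behind the peaks is unknown, and the scores of the 2 lists are not on a known common scale. For the values that move, the cause was not tested. Values are given for chromosomes 10, 12 and 20 first and for the other autosomes second.

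Holding both lists to scores of 100 or more, the basal share of calls was 83.7% and 81.7%, and bins with more basal calls made up 85.9% and 74.2%, which turns the direction of the latter. That score leaves 14234 basal and 3173 phenylephrine peaks over the whole lists. Shared peaks were then 9.19% and 10.3% of the basal and 47.1% and 46.2% of the phenylephrine list, and median widths 1587 and 1540 bp and 894 and 830 bp. At a score of at least 200, 9.46% and 9.76% of basal and 0.512% and 0.394% of phenylephrine peaks remained.

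With 21345 top-scoring peaks per list the basal share of calls was 55.4% and 49.1%, basal-rich bins 56.3% and 33.4%, shared basal peaks 21.0% and 21.3% and shared phenylephrine peaks 26.4% and 20.9%. By covered bases the basal share was 71.3% and 67.2%. Bins of 0.5 Mb were basal-rich in 57.4% and 36.9%, and bins of 2 Mb in 66.7% and 38.9%. With 2 Mb bins the basal share on the other autosomes was 39.1% and 47.2% in the 2 sparser classes.

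When 50% of both peaks had to overlap, 7.95% and 8.22% of basal and 9.61% and 8.22% of phenylephrine peaks were shared. Within 1 kb it was 25.4% and 24.4%, and 31.3% and 25.0%. With every peak set to 600 bp it was 16.7% and 16.5%, and 20.3% and 16.7%. The phenylephrine share was higher on the 3 chromosomes under each of these settings, by 0.904 percentage points where least, at a score of at least 100. The small difference in the basal share changed sign with 50% overlap, with equal numbers of peaks and at a score of at least 100. Merging peaks within 1 kb gave median basal widths of 1205 and 1122 bp and phenylephrine widths of 601 and 587 bp. Without chromosome 10 the median basal width was 1132.5 bp.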
